A study of Mus musculus with 8 samples.

Results

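RNA levels of 8 genes of myelin and of Schwann cells were followed in whole mouse knee joints: Mbp, Pmp22, Mag, Prx, Sox10, S100b, Mal and Ncmap. They were chosen by name, and all 8 were found among the 20681 genes of the deposited table, each in 1 row. The joints came from mice that carried Acan-Cre, a Cre recombinase expressed from the aggrecan gene, together with Loxl2 fl/fl alleles, and the labels give this genotype for all 8 samples. Vehicle went to the 4 controls, whose library names carry wt, and the other 4 are labelled conditional knockouts of Loxl2, the gene of a collagen-crosslinking enzyme. Aggrecan is a gene of cartilage cells, but in which cells of these joints the Cre acted was not measured. What the samples labelled knockout received in place of vehicle, the age of the mice and whether a joint came from 1 animal are not given in the sources used here. DMM stands in every library name of both groups and is not explained there. If the replicates of a group were not separate animals, the p-values below measure only the spread between these samples.

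Schwann cells are the glia of peripheral nerve, and in a joint they follow the sensory and sympathetic fibres of synovium, ligament, bone and fat pad and the motor fibres of the surrounding muscle. The myelinating kind wraps an axon in a spiral of compact membrane, whose proteins include myelin basic protein and PMP22. The non-myelinating kind ensheathes thin fibres, among them most pain fibres, without building myelin. SOX10 is the transcription factor of the whole lineage, and EGR2, acting with it, switches on the myelin genes.

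Values are read counts scaled to library size, called normalised read counts, and the libraries held 13991000 to 17411617 reads assigned to genes. Differences are log2 differences, libraries labelled knockout minus control, of values with 1 added, which understates the change of low genes. A gene was called at a limma adjusted p under 0.05 (Benjamini-Hochberg over the 14949 genes abundant enough to test). Of those genes, 3461 (23.2%) were called, 1732 higher and 1729 lower. When libraries were scaled without muscle, red cell and neutrophil genes and the 50 highest genes, the balance was 2708 higher and 784 lower, and the median of all genes moved by 0.15 on the log2 scale. The targeted gene went against its label: Loxl2 had 282, 349, 1135 and 311 normalised reads in controls 1 to 4 and 893, 1468, 960 and 1518 in knockout-labelled libraries 1 to 4 (log2 difference 1.44, SE 0.40, limma adjusted p = 0.0294, exact permutation p = 0.0857). That call of Loxl2 was lost with edgeR (adjusted p = 0.0669), with DESeq2 (adjusted p = 0.0659) and in 5 of the 8 fits without 1 library (limma adjusted p 0.0666 to 0.0849, without controls 1, 2 and 4 and knockout-labelled libraries 2 and 4). The groups are therefore called by their labels, and every direction below rests on those labels. A whole joint is a mixture, in which fewer cells of a type and less RNA per cell cannot be told apart.

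The RefSeq windows around transcription starts (build GRCm38.p6, 250 bases before to 50 after a start) covered 6 of the 8 genes, Mag, Mal, Ncmap, Pmp22, Prx and S100b. Of the windows, 5 are printed here, 3 from the 2 genes that differed between the groups and 2 from myelin genes that did not pass the test. Pmp22 has several starts, and it is known to be transcribed from one promoter used mainly by myelinating Schwann cells and from another used by many cell types. A gene-level count adds them together. The first and second start of Pmp22 in coordinate order are shown, without a statement of which is which. Capitals mark the letters ACAAAG, a core that SOX proteins bind, or GTGGGNG, a core that EGR proteins bind, searched on both strands.
Pmp22 first start (chr11:63128732-63129031, plus strand): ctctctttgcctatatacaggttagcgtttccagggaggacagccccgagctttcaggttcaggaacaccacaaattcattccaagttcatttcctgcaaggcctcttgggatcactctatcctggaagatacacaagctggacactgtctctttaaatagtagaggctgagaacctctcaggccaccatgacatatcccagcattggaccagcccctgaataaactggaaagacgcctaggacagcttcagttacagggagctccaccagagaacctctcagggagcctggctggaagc
Pmp22 second start (chr11:63131207-63131506, plus strand): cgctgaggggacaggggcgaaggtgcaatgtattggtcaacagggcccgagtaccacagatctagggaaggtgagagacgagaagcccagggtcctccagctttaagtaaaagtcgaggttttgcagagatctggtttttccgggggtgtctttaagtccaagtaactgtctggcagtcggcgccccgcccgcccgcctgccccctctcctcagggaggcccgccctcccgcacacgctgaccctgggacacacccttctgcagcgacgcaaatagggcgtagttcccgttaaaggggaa
S100b (chr10:76253586-76253885, plus strand): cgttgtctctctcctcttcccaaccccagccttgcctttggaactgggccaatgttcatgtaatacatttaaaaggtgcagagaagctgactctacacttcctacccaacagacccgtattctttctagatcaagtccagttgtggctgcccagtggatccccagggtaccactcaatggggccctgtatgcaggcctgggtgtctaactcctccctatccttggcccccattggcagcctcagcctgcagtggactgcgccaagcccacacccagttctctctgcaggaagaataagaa
Prx (chr7:27499074-27499373, plus strand): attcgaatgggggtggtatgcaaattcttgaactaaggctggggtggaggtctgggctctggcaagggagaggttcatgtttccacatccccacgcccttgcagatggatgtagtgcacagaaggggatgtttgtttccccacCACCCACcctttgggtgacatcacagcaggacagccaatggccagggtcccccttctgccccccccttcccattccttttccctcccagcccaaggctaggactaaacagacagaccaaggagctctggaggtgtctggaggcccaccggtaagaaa
Mag (chr7:30914814-30915113, minus strand): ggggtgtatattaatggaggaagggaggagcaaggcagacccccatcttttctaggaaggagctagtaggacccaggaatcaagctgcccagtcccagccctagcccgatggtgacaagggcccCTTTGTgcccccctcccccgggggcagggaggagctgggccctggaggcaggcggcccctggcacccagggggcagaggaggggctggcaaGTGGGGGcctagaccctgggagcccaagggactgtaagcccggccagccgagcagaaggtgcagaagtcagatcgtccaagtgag
The Prx window held 1 match to GTGGGNG and the Mag window 1 match to each core. The windows of Pmp22 and S100b held neither. Among windows not printed, neither core was found in that of Mal, in the Mag window from 30914272 or in the Ncmap window from 135385623. Over all 32851 windows of this length, 18.7% held ACAAAG and 31.6% held GTGGGNG. Of the 12 windows of the 6 genes, 2 and 4 did, both of the former belonging to overlapping windows of Mag. A match is a string of letters and not a measured binding site.

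S100b (2.27-fold) and Pmp22 (1.46-fold) were higher in the libraries labelled knockout, and 0 of the 8 genes were called lower by limma, edgeR or DESeq2. For 6 of the 8, Mbp, Mag, Prx, Sox10, Mal and Ncmap, no difference passed the test. All 8 passed the filter on low values. The 2 calls of 8 stand beside a background of 11.6% of all tested genes called higher and 11.6% called lower. The 2 called genes were also the only ones of the 8 whose groups did not overlap, against 25.1% of all tested genes, 11.7% apart upwards and 13.4% downwards. At an unadjusted limma p under 0.05 stood 3 of the 8, the third being Mal on the lower side, beside 38.4% of all tested genes. The median log2 difference of the 8 was -0.0017, beside 0.0012 over all genes tested.

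**Figure D1:**
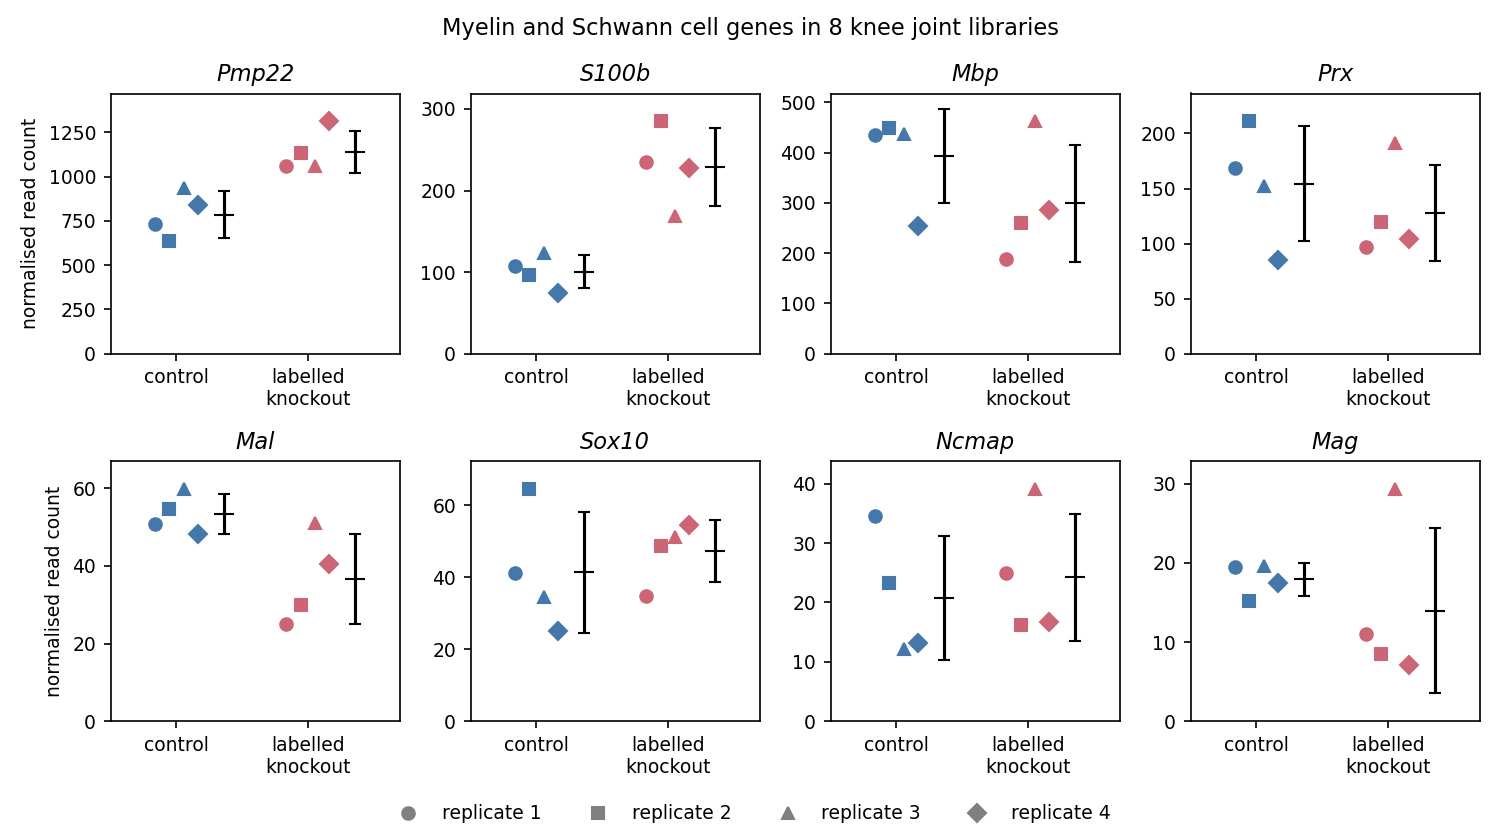
Normalised read count of each of the 8 genes (vertical axes, linear from 0) in each library, control in blue and labelled knockout in red, with the symbol giving the replicate number and the bar the group mean ± SD (n = 4). The groups are apart for Pmp22 and S100b and overlap for the other 6, and replicate 3 of the group labelled knockout is the highest of its group for Mbp, Prx, Mal, Ncmap and Mag.

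S100b encodes a calcium-binding protein used as a general marker of Schwann cells, myelinating or not, and it is also made by chondrocytes and fat cells. The gene lies on chromosome 10 from 76253853 to 76261159 (mm10, plus strand). Its normalised read counts were 107, 96.9, 123 and 74.5 in controls 1 to 4 and 235, 285, 169 and 228 in knockout-labelled libraries 1 to 4. The lowest library labelled knockout lay above the highest control. The means were 100.5 ± 20.46 and 229 ± 47.6 (SD, n = 4 each), and they lay 1.18 apart in log2 (SE 0.20, limma adjusted p = 0.00588; exact permutation p = 0.0286, the smallest that 4 against 4 allows). The call was kept in each of the 17 alternative settings, including the 8 that left out 1 library, with log2 differences from 1.02 to 1.33. Dip2a lies over it on the opposite strand but shares 0 exonic bases with it in the annotation, and the use of strand in counting is not given in the sources used here.

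Markers of 2 other tissues that make S100b, cartilage and fat, gave 1 call of 10 and 1 of 8 by limma, beside 23.2% of all tested genes. The counts were the same by edgeR, and DESeq2 called 2 of 10 and 2 of 8. The summed value of 10 chondrocyte genes ranged from 3087 to 7900 in control libraries and from 8193 to 12432 in those labelled knockout. Of these, 9 were higher and 1 lower, with a median log2 difference of 0.76. The one called by limma was Hapln1, a link protein of the cartilage matrix (log2 difference 1.28, limma adjusted p = 0.0165, and 0.0513 without knockout-labelled library 4). Comp, a cartilage and tendon matrix gene, had a difference of 0.91 (limma adjusted p = 0.0501). It was called in 2 of the 8 fits without 1 library and in 4 of the 9 other alternative settings. Comp carried the gap in the sum, since without it the other 9 genes summed to 521 to 3651 in controls and 1357 to 2383 in those labelled knockout, which overlap. Of the fat cell genes 3 were higher and 5 lower, with a median log2 difference of -0.12. Their sum was 7076 to 8470 in controls and 5303 to 7046 in those labelled knockout. The gap rested on the one gene called by limma, Pnpla2, a triglyceride lipase, which fell by 0.80 (limma adjusted p = 0.00714). Its control mean was 4011 ± 644 normalised reads, and those of the other 7 ran from 52.2 (Retn) to 2614 (Fabp4). Which cells the Pnpla2 reads came from was not tested. Without Pnpla2 the other 7 summed to 2719 to 5247 and 3362 to 4399, which overlap. These sums without 1 gene were added after the data were seen. The part of either tissue in the S100b count was not tested.

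Pmp22 encodes peripheral myelin protein 22, a membrane-spanning protein of compact myelin whose copy number matters for inherited neuropathy. Its mRNA was also found early on in growth-arrested fibroblasts. The gene lies on chromosome 11 from 63128982 to 63159547 (plus strand). It had 731, 636, 937 and 838 normalised reads in controls 1 to 4 and 1062, 1133, 1057 and 1312 in knockout-labelled libraries 1 to 4. The groups were separate, with a gap between control replicate 3 and the lowest library labelled knockout. The means were 786 ± 131 and 1141 ± 119 (SD, n = 4 each), 0.55 apart in log2 (SE 0.13, limma adjusted p = 0.0162; exact permutation p = 0.0286). Over the 8 fits that left out 1 library the difference was 0.45 to 0.64 and the limma adjusted p 0.00875 to 0.0498, so that each stayed under 0.05.

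Fibroblast genes were higher in the same libraries. The summed value of 10 fibroblast genes was 69395 to 194726 in controls and 214150 to 369186 in those labelled knockout. By limma 7 of the 10 were called higher, beside 11.6% of all tested genes, with a median log2 difference of 1.49. By edgeR 6 were called and by DESeq2 8. The groups did not overlap for 3 of the 10, beside 11.7% of all tested genes apart upwards. The sums overlapped without Col1a1, a chain of type I collagen (55984 to 164267 in controls and 150156 to 289211 in those labelled knockout). They stayed apart without Postn (69005 to 193026 and 206815 to 361163), without Fn1 (38665 to 119361 and 167963 to 271076) and without Col3a1 (64138 to 156948 and 176642 to 298958). Postn, a secreted matrix protein of activated fibroblasts (3.42, limma adjusted p = 0.00397), Pdgfra, a growth factor receptor of fibroblasts (1.31, limma adjusted p = 0.0105), and Lum, a collagen-binding proteoglycan (2.24, limma adjusted p = 0.0120), had the smallest p-values. The part of fibroblasts in the Pmp22 count was not tested.

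**Figure D2:**
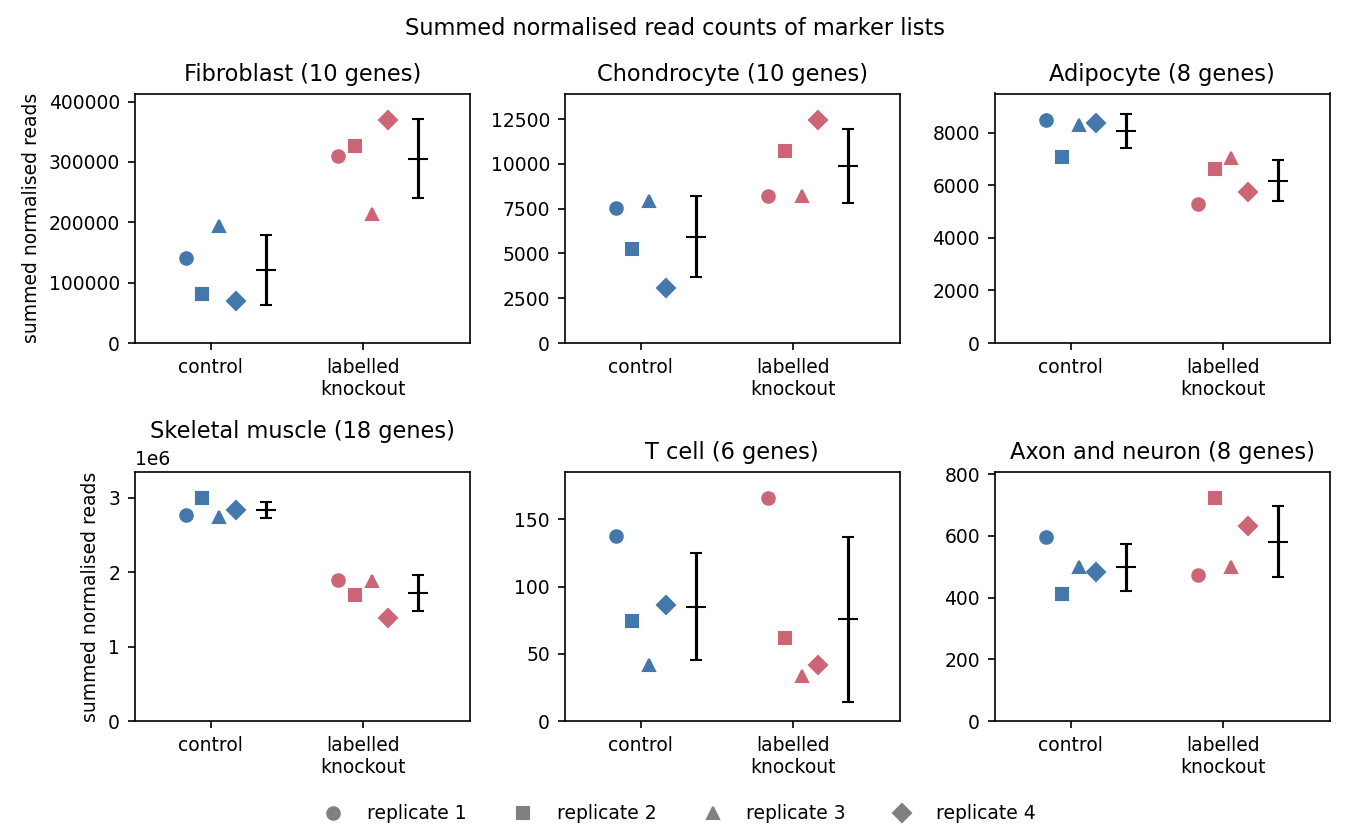
Summed normalised read counts of 6 marker lists in each library, with the bar giving the group mean ± SD (n = 4). The fibroblast and chondrocyte sums are higher and the muscle and fat cell sums lower in every library labelled knockout than in any control library, while the T cell and axon sums overlap. For the chondrocyte, fat cell and fibroblast sums the gap is lost without Comp, Pnpla2 and Col1a1 respectively. The fibroblast gap stays without Postn, Fn1 or Col3a1.

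Apart from Pmp22, the sheath genes among the 8 (Mbp, Prx, Mal, Mag and Ncmap) did not pass the test. Mbp encodes myelin basic protein, which seals the inner faces of the compact membrane, and the same locus (chromosome 18, 82475146 to 82585637) also makes the longer golli transcripts of immune and nerve cells, which a gene count does not separate. Mbp had 436, 448, 437 and 253 normalised reads in controls 1 to 4 and 188, 260, 462 and 286 in knockout-labelled libraries 1 to 4. Controls 1 to 3 were close together and control replicate 4 lay well below them, while the highest value of all 8 was in replicate 3 labelled knockout, so the groups overlapped. The means were 394 ± 93.9 and 299 ± 116, with a log2 difference of -0.43 and a 95% interval from -1.04 to 0.17 (limma adjusted p = 0.269). With 1 library left out the difference of Mbp ran from -0.24 without knockout-labelled library 1 (limma adjusted p = 0.543) to -0.67 without knockout-labelled library 3 (limma adjusted p = 0.0611), and none of the 8 such fits called it.

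Prx encodes periaxin, a scaffold that ties the outer Schwann cell membrane to the basal lamina (chromosome 7, 27499324 to 27520214). Its values were 169, 211, 152 and 85.4 in controls 1 to 4 and 96.7, 120, 191 and 104 in knockout-labelled libraries 1 to 4. The order of the libraries was nearly that of Mbp, with control replicate 4 low and replicate 3 labelled knockout high. The log2 difference was -0.25, with a 95% interval from -0.91 to 0.41 (limma adjusted p = 0.567). It was -0.077 without control 2 and -0.51 without control 4, and uncalled in each of the 8 fits without 1 library. Of the 5579 exonic bases of Prx, 300 are shared with Gm15541 on the opposite strand.

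Mal encodes a small membrane protein that sorts lipid-rich membrane in myelin, and it is also made by T cells and some epithelia (chromosome 2, 127633226 to 127656695). It had 50.8, 54.5, 59.8 and 48.2 normalised reads in controls 1 to 4 and 24.9, 29.9, 51.1 and 40.5 in knockout-labelled libraries 1 to 4. Only replicate 3 labelled knockout reached into the control range. The groups differed by -0.58 in log2 (SE 0.25, limma adjusted p = 0.120; exact permutation p = 0.0857), and the 95% interval, unadjusted, ran from -1.14 to -0.019. Without replicate 3 labelled knockout it was -0.75 and passed the threshold (limma adjusted p = 0.0472), and without replicate 1 labelled knockout it was -0.42 (limma adjusted p = 0.255). Among 6 T cell genes the summed value was 42.1 to 137 in controls and 33.7 to 166 in those labelled knockout. Of the 2 abundant enough to test, Cd3e, a chain of the T cell receptor complex, fell by 1.19 (limma adjusted p = 0.0377, but 0.0572 to 0.0937 without control 1, 2 or 4 or knockout-labelled library 2, 3 or 4) and Cd4 was not called (0.59, limma adjusted p = 0.519). Control means were 54.7 ± 20.6 normalised reads for Cd3e, 1.90 ± 2.56 for Cd3d and 2.09 ± 1.56 for Cd3g. Of the 4080 exonic bases of Cd3e, 135 are shared with Gm48719 on the opposite strand. Which cells the Cd3e reads came from was not tested. Cd3d, Cd3g, Cd8a and Lck were too low to test. Their means were higher in the libraries labelled knockout, with the highest value of each in knockout-labelled library 1. Lck had 10.2 ± 8.45 normalised reads in controls and 15.5 ± 17.7 in those labelled knockout. The part of T cells in the Mal count was not tested.

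Mag and Ncmap were the lowest of the 8. Mag encodes myelin-associated glycoprotein, an adhesion molecule of the innermost wrap that faces the axon (chromosome 7, 30899176 to 30914873), and it was counted with only 8 to 27 reads per library. Its normalised read counts were 19.5, 15.1, 19.6 and 17.5 in controls 1 to 4 and 10.97, 8.55, 29.4 and 7.04 in knockout-labelled libraries 1 to 4. Replicates 1, 2 and 4 labelled knockout were below all the controls, and replicate 3 was above them all. The log2 difference was -0.54 with an interval from -1.51 to 0.42 (limma adjusted p = 0.383), and it ran from -0.32 without replicate 4 labelled knockout (limma adjusted p = 0.664) to -0.95 without replicate 3 labelled knockout (limma adjusted p = 0.0662).

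Ncmap encodes a small membrane protein of non-compact myelin (chromosome 4, 135369576 to 135398227). It had 34.6, 23.2, 12.2 and 13.1 normalised reads in controls 1 to 4 and 24.9, 16.2, 39.1 and 16.7 in knockout-labelled libraries 1 to 4. The values of the groups were intermingled. The log2 difference was 0.25 with an interval from -0.68 to 1.18 (limma adjusted p = 0.698), and its sign was not fixed, since it was -0.0052 without replicate 3 labelled knockout and -0.0060 under quantile normalisation.

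Sox10, the lineage regulator (chromosome 15, 79154908 to 79165240), is on in Schwann cells whether or not they make myelin, and also in melanocytes. Its values were 41.1, 64.6, 34.6 and 25.2 in controls 1 to 4 and 34.9, 48.7, 51.1 and 54.6 in knockout-labelled libraries 1 to 4. The highest and lowest of the 8 libraries were both controls. The log2 difference was 0.25 with an interval from -0.41 to 0.92 (limma adjusted p = 0.568). It was 0.047 without control 4, 0.49 without control 2 and 0.0089 under quantile normalisation, and uncalled in each. S100b, the other marker shared by both kinds of Schwann cell, differed from it in pattern. The ratio of S100b to Sox10 was 2.61, 1.5, 3.57 and 2.96 in controls 1 to 4 and 6.74, 5.84, 3.30 and 4.18 in knockout-labelled libraries 1 to 4. Only replicate 3 labelled knockout fell within the control range of that ratio, which was formed after the values had been seen and is given without a test.

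Markers of other glia and of pigment cells were mostly low. The central myelin genes Mobp and Ermn had at most 10.1 and 6.16 normalised reads in any library, and the pigment cell genes Pmel and Dct at most 15.96 and 6.57. Each of these 4 was under the filter for testing. Aspa, an enzyme of oligodendrocytes that is also made outside the nervous system, had 79.0 to 135 normalised reads and a log2 difference of -0.037 (limma adjusted p = 0.907).

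Per kilobase of annotated exon, the scale on which levels of different genes can be compared, Pmp22 was the highest of the 8 in the control group, with 334 ± 55.5 normalised reads per kilobase. It was followed by S100b (67.7 ± 13.8), Mbp (46.5 ± 11.1), Prx (27.7 ± 9.35), Mal (19.2 ± 1.81), Sox10 (13.6 ± 5.51), Ncmap (9.33 ± 4.71) and Mag (4.41 ± 0.51). Pmp22 stood clear of S100b, and Ncmap of Mag, but each pair of neighbours between S100b and Ncmap overlapped in its range of libraries. In the group labelled knockout S100b (154 ± 32.1) had moved clear of Mbp (35.3 ± 13.7). Exons of all transcripts of a gene were joined, so a gene with long alternative transcripts, as Mbp has, appears lower on this scale.

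Within the groups, several of the sheath genes went up and down together from library to library. After subtracting each group's mean, the log2 values of Mbp and Prx had a Pearson r of 0.90 and a Spearman rho of 0.95 over the 8 libraries, and those of Mbp and Mal an r of 0.85 and a rho of 0.76. Leaving out the 2 libraries farthest from the median of Mbp, control 4 and knockout-labelled library 1, r was 0.82 for Mbp with Prx and 0.84 for Mbp with Mal. Knockout-labelled library 3 was kept in. It lay highest above its group mean for Mbp, Prx and Mal (0.70, 0.63 and 0.52 in log2). How far these r values rest on knockout-labelled library 3 was not tested. Sox10 had an r of 0.67 (rho 0.71) with Mbp, which rested on control 4 and knockout-labelled library 1, since r was 0.056 without them. With Prx it had an r of 0.77 (rho 0.69), and 0.75 without the 2 libraries farthest from the median of Prx. Pmp22 and S100b were less like Mbp, with an r of -0.19 (rho -0.38) and -0.064 (rho -0.21), and their r with each other was 0.22 (rho 0.43). These 3 values were unstable, at -0.34, -0.84 and -0.18 without the 2 libraries farthest from the median of the first gene. Of the 28 pairs among the 8 genes, 11 had an r above 0.5 and 3 an r below -0.5, each of the latter involving Pmp22 or S100b. These correlations describe libraries that share a size factor across genes, and they carry no test.

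Replicate 3 labelled knockout, the highest of its group for Mbp, Prx, Mal, Mag and Ncmap, was the lowest of its group for S100b.

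**Figure D3:**
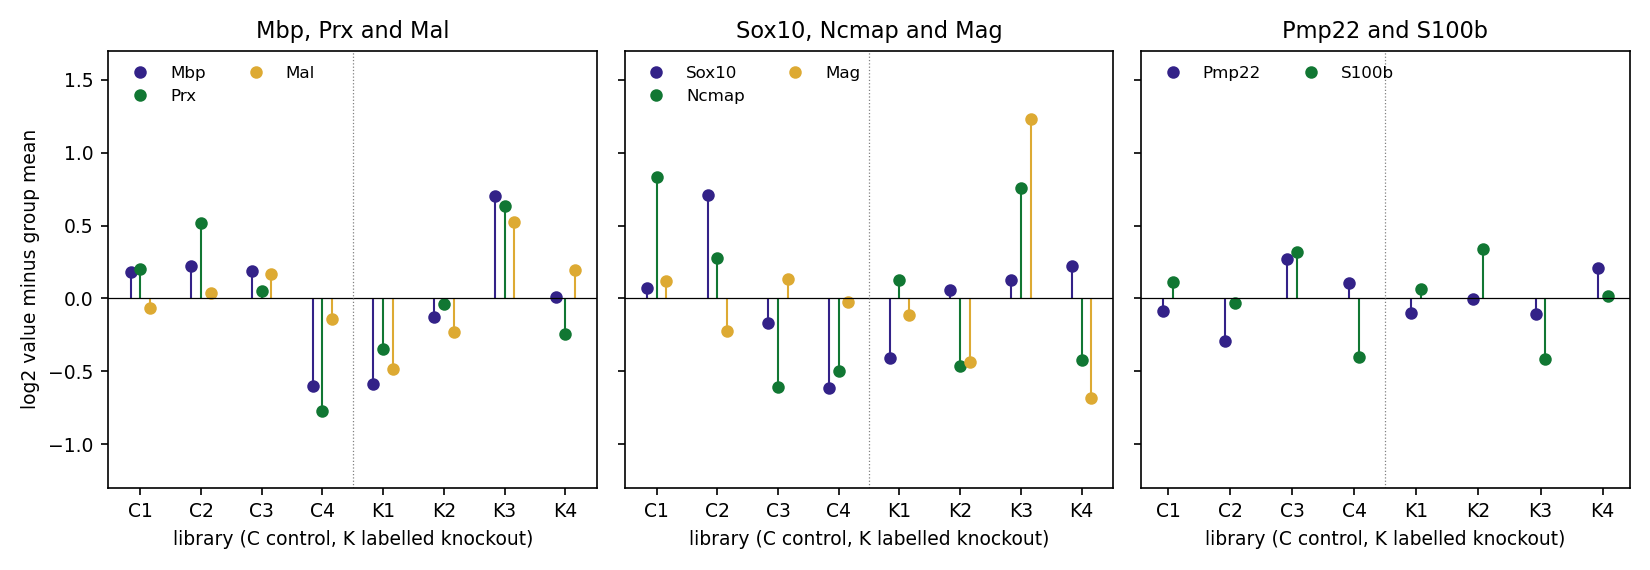
Deviation of each library's log2 value from its group mean (vertical axis) for the 8 genes, with controls C1 to C4 and libraries labelled knockout K1 to K4 on the horizontal axis. Mbp and Prx are low in C4 and K1 and high in K3, Mag and Ncmap are also highest of their group in K3, and S100b is lowest of its group in C4 and K3.

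The ratio of Prx to Mbp was 0.39, 0.47, 0.35 and 0.34 in controls 1 to 4 and 0.51, 0.46, 0.41 and 0.36 in knockout-labelled libraries 1 to 4. These values overlapped, with means of 0.39 ± 0.060 and 0.44 ± 0.064 (SD, n = 4 each). The ratio of Pmp22 to Mbp was 1.68, 1.42, 2.14 and 3.31 in controls 1 to 4 and 5.63, 4.36, 2.29 and 4.58 in knockout-labelled libraries 1 to 4. Only replicate 3 labelled knockout fell within the control range of that ratio. Both ratios were formed after the values had been seen and carry no test.

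The genes whose within-group pattern was most like the mean of the 8 (each standardised) were Nos1, Zmat5, Itpripl1, Gm10704 and Ubqln1, with Pearson r from 0.97 to 0.99 over 8 libraries among 11642 candidates of mean value at least 50. Nos1, whose product is named neuronal nitric oxide synthase, had the highest (r = 0.99, rho = 1). It had 2636, 2905, 2471 and 1470 normalised reads in controls 1 to 4 and 1065, 1372, 2317 and 1532 in knockout-labelled libraries 1 to 4, so it too was low in control replicate 4 and high in replicate 3 labelled knockout. Which cells the Nos1 reads came from was not tested. Among the same candidates, the Schwann cell gene Erbb3 ranked 302 (r = 0.80) and the myelin membrane gene Cnp 8576 (r = -0.34). With so many candidates and 8 libraries, high values of r are found for some genes whatever the pattern.

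A further 52 genes of Schwann cells and myelin were set beside the 8, from 3 lists. Of these 40 could be tested, and 7 were called higher and 1 lower, with a median log2 difference of 0.23. These 8 calls of 40 are below the share of all tested genes called, 23.2%. Among 15 tested genes of compact myelin and the myelin membrane, 3 were called higher and 0 lower. Cnp, an enzyme of the myelin membrane that many other cells also make, had 0.032 (limma adjusted p = 0.871), with a sign that changed between settings. The 3 called are widely made proteins: Mpzl1, a cell-surface receptor (0.84, SE 0.17, limma adjusted p = 0.0104), Cd9, a tetraspanin (0.97, SE 0.22, limma adjusted p = 0.0147), and Ndrg1, a gene of inherited neuropathy that is also induced by low oxygen (0.39, SE 0.11, limma adjusted p = 0.0305). Ndrg1 was no longer called without control 2 or 4 or knockout-labelled library 2, 3 or 4 (limma adjusted p 0.0563 to 0.0825).

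Among 18 tested regulators and receptors of Schwann cells, 3 were called higher and 1 lower. Nab2, a corepressor that binds EGR proteins and takes part in myelination (0.88, SE 0.18, limma adjusted p = 0.0105), and Egr1, an immediate early gene found in immature Schwann cells and in many activated cells (1.08, SE 0.25, limma adjusted p = 0.0158), rose. Plekhb1, a membrane-bound protein first described in the eye, fell by 0.94 (SE 0.14, limma adjusted p = 0.00431), from 1546 ± 226 to 805 ± 127 normalised reads. Control means of the Schwann cell genes Sox10 and Erbb3 were 41.4 ± 16.8 and 108 ± 14.9. Which cells the Plekhb1 reads came from was not tested. The fourth called gene, Lgi4, a secreted Schwann cell protein needed for myelination (0.99, SE 0.24, limma adjusted p = 0.0173), was named after its values were seen. It had 38.9, 35.3, 48.6 and 34.0 normalised reads in controls 1 to 4 and 51.9, 93.2, 83.7 and 92.4 in knockout-labelled libraries 1 to 4. Its groups were apart by a small margin, and its call was lost without replicate 4 labelled knockout (limma adjusted p = 0.0560) and under quantile normalisation (limma adjusted p = 0.0584). Of its 4584 exonic bases 2059 are shared with Fxyd3 on the opposite strand, and of the 2941 of Nab2 1050 are shared with Gm16229, so with strand use unknown the reads of these genes cannot be told apart.

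Egr2, the master regulator of myelination, had 24.9, 20.2, 25.2 and 24.1 normalised reads in controls 1 to 4 and 25.9, 35.1, 47.8 and 78.3 in knockout-labelled libraries 1 to 4. The groups did not overlap, but replicate 1 labelled knockout was level with the controls, and the difference was not called (0.85, SE 0.33, limma adjusted p = 0.0886). Its call was gained without that library (1.08, limma adjusted p = 0.0456) and with DESeq2 (0.998, DESeq2 adjusted p = 0.0417), and in no other of the 17 alternatives. It was 0.56 without replicate 4 labelled knockout (limma adjusted p = 0.218) and 0.58 under quantile normalisation (limma adjusted p = 0.235). Erbb3, the neuregulin receptor subunit of Schwann cells, had -0.27 (limma adjusted p = 0.374), and Cdh19, a cadherin of Schwann cell precursors, -0.35 (limma adjusted p = 0.517). Pou3f1, the factor of the promyelinating stage, had 0.23 (limma adjusted p = 0.752) and a sign that changed between settings.

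Genes of non-myelinating and repair Schwann cells gave 1 call among 7 tested, which was higher. Ncam1, an adhesion molecule of non-myelinating Schwann cells and also of regenerating muscle fibres and nerve, rose by 0.90 (SE 0.22, limma adjusted p = 0.0176), from 201.2 ± 65.3 to 364 ± 49.96 normalised reads. Artn, which encodes a growth factor for sensory neurons, had 0.91 at 5 to 29 reads (limma adjusted p = 0.128). Cryab, a small heat shock protein of muscle as well as of myelin, had -0.43 (limma adjusted p = 0.112). Ngfr, the low-affinity neurotrophin receptor that marks non-myelinating and repair Schwann cells, had 11.9, 13.1, 30.8 and 10.95 normalised reads in controls 1 to 4 and 21.9, 27.4, 30.4 and 14.1 in knockout-labelled libraries 1 to 4. The groups overlapped because of control replicate 3 (0.54, limma adjusted p = 0.348).

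The axon list gave 0 calls by limma and by edgeR and 1 by DESeq2 among 5 tested genes. At an unadjusted limma p under 0.05 stood 2 of the 5, near the 38.4% of all tested genes. Tubb3, a neuronal tubulin, had 9.08 to 34.6 normalised reads in controls and 35.2 to 88.9 in those labelled knockout, with a difference of 1.33 (limma adjusted p = 0.0511, and 0.0264 without control 3; DESeq2 adjusted p = 0.0221). Cntnap1, the axonal partner of the myelin loops beside the node, had 0.66 (limma adjusted p = 0.0903), and Stmn2, a microtubule regulator of neurons, 0.37 (limma adjusted p = 0.235). The summed axon values were 413 to 598 in controls and 475 to 722 in those labelled knockout. Skeletal muscle, the largest source of RNA in these libraries among the lists, was lower in the libraries labelled knockout. All 18 of 18 genes were lower, with 8 called by limma, 15 by edgeR and 17 by DESeq2. Over all tested genes limma called 23.2%. First among the muscle genes was Ryr1, the calcium release channel, which fell by 1.04 (limma adjusted p = 0.00399). The part of muscle in the lower means of Mbp, Prx, Mal and Mag, which did not pass the test, was not tested.

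The other cell types of a joint were followed by the same kind of lists. Macrophage genes were higher, with 7 of 8 called by limma, by edgeR and by DESeq2, beside 23.2% of all tested genes by limma. Their summed value was 1429 to 3300 in controls and 4931 to 6858 in the libraries labelled knockout. C1qb, a complement component of tissue macrophages, rose by 1.28 (limma adjusted p = 0.00399). Perineurial cells, which sheathe the nerve fascicle, gave 0 calls among 3 genes by limma, edgeR and DESeq2, with 1 at an unadjusted limma p under 0.05, Slc2a1, a glucose transporter (0.46, limma adjusted p = 0.106). Endothelial genes gave 0 calls among 7 by limma, edgeR and DESeq2 and 0 at an unadjusted limma p under 0.05. Red cell genes, with sums of 16755 to 98968 in controls and 4040 to 42558 in those labelled knockout, gave 0 calls among 7 with the 3 tools but 7 at an unadjusted limma p under 0.05, all lower. Neutrophil genes gave 0 calls among 8 with the 3 tools and 1 at an unadjusted limma p under 0.05. These unadjusted counts stand beside 38.4% of all tested genes. Control 4 and knockout-labelled library 3 had the highest red cell sums of their groups; they were also the low and the high end of their groups for Mbp, and the part of blood in these values was not tested.

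**Figure D4:**
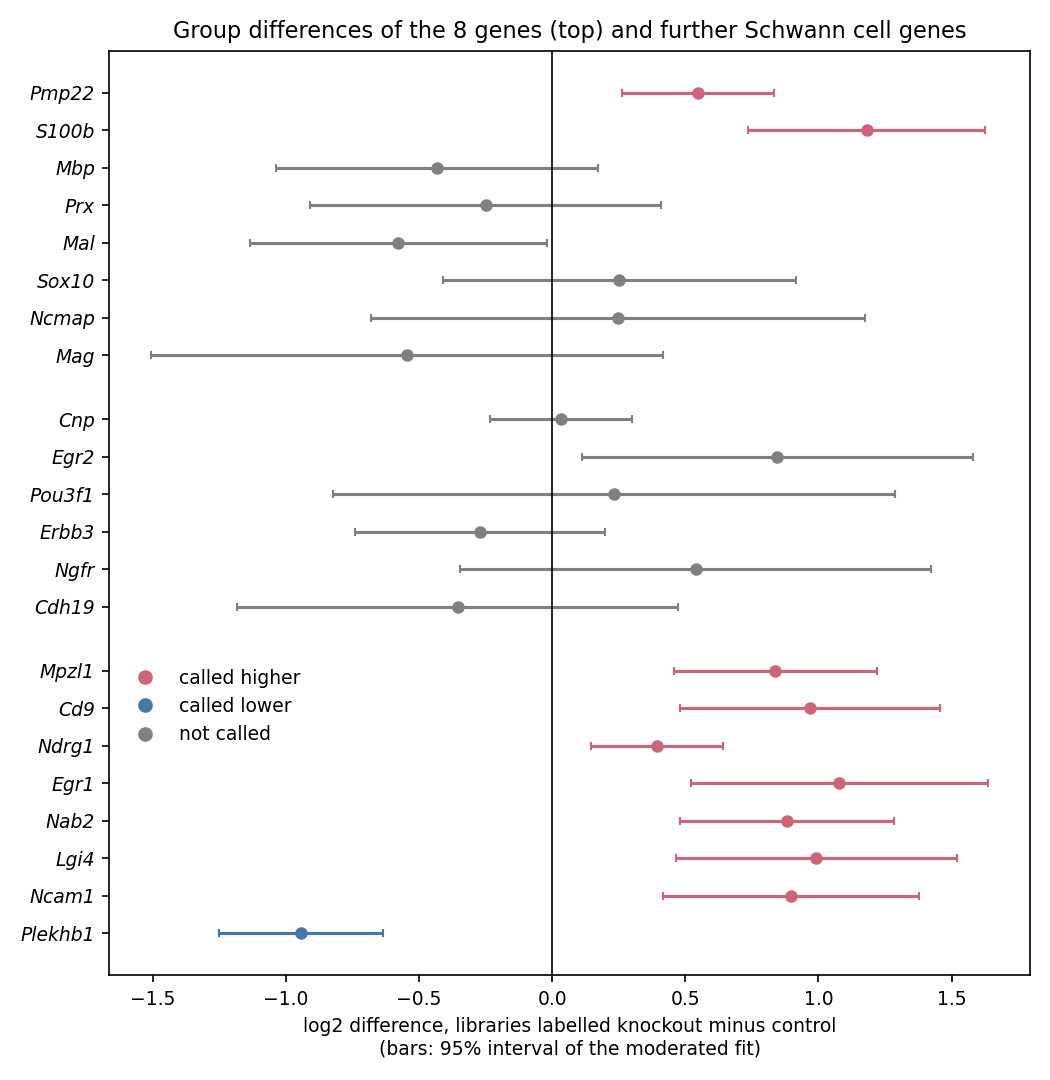
Log2 difference, libraries labelled knockout minus control (horizontal axis), with its 95% interval from the moderated fit, for the 8 genes (top), 6 further Schwann cell genes (middle) and the 8 further genes that were called (bottom). Pmp22 and S100b lie to the right of 0 and the other 6 are not called, with Mal the closest to a call on the left.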

How the data were processed

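Poly-A RNA of 8 mouse knee joints was sequenced, 4 control and 4 labelled knockout, and the samples were grouped by their titles. Per the submitters' processing notes and design text, the authors aligned reads to mm10 with HISAT2, counted them per gene with featureCounts and normalised with DESeq2. Versions, annotation, strand and filter values are not given in the sources used here. The deposited values are a normalised signal, the read count divided by 1 size factor per library. In each library 100% of the values were whole multiples (within 0.05 reads) of 1 step, from which the reads were recovered, 13991000 to 17411617 per library. In control replicate 2 and knockout replicate 1 that step is close to 1 and says little. Recomputed median-of-ratios size factors matched the steps. On the recovered reads edgeR called 3324 genes and DESeq2 4125, against 3461 by limma.

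Testing took genes that reached 10 in 4 or more libraries, with limma 3.58.1 on log2(value + 1), with an intensity trend and no block. A gene was called at a Benjamini-Hochberg adjusted p under 0.05 over all genes tested. Exact permutation tests were two-sided over 70 assignments of log2 values, with a smallest possible p of 0.0286. Alternatives were other scalings, pseudocounts of 0.1 and 10, no filter, edgeR 4.0.16, DESeq2 1.42.0, a replicate block, and leaving out each library. The fits were tested on simulated data. GENCODE M21, on the same build as mm10, gave coordinates and exon lengths. The 8 genes and all lists were chosen with earlier results of these data known. Named by rule were the 8 genes, 6 further Schwann cell genes, Loxl2, up to 3 tested genes of smallest p per list described, and the 5 genes of most similar pattern (r of group-centred log2 values). Some genes that the rule names are not reported here, though they count in the totals of their lists.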

Additional observations from a re-analysis of the deposited data

Results flagged for a closer look

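In groups of 4 libraries, 1 value stood apart from the other 3 by Dixon's criterion in 6 of the 56 groups examined, where chance gives about 1 in 20. Mbp had 253 normalised reads in control replicate 4, against 436 to 448 in the other controls. Cnp had 215 in replicate 4 labelled knockout, against 268 to 277. Ngfr had 30.8 in control replicate 3, against 10.95 to 13.1. Artn had 5.48 in control replicate 4, against 10.1 to 10.8, at 5 reads. Tubb3 had 88.9 in replicate 2 labelled knockout, against 35.2 to 43.5. Loxl2 had 1135 in control replicate 3, against 282 to 349.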

How the results depend on the processing

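The 2 calls among the 8 genes, Pmp22 and S100b, were the same under the other scalings, pseudocounts, filter and tools and the replicate block, and with each library left out in turn gave counts of 2 to 3, the third being Mal without replicate 3 labelled knockout. The count of the further Schwann cell genes called was 7 to 10 under the other settings and 6 to 10 with 1 library left out. The count over all genes was 2018 with the replicate block, and 1751 to 3841 with 1 library left out, moving by over 1.5 times without control replicate 2 (1887), control replicate 4 (2194) or replicate 4 labelled knockout (1751). The replicate numbers are not stated to pair the samples. Deviations of same-numbered libraries correlated at 0.21, -0.12, -0.23 and -0.063, which in groups of 4 cannot settle whether they were paired. The block ended the call of Ndrg1 (limma adjusted p = 0.0552), of Hapln1 (0.0511) and of Loxl2 (0.0513), and of no other gene called among those named and refitted. Signs reversed for genes near 0 that were not called. Ncmap was -0.0060 under quantile normalisation and -0.0052 without replicate 3 labelled knockout (-0.0052 to 0.52 with 1 library left out). Cnp was -0.061 under quantile normalisation, -0.010 without control replicate 2 and -0.0041 without replicate 2 labelled knockout (-0.010 to 0.12 with 1 left out). Pou3f1 was -0.084 under quantile normalisation and -0.097 without control replicate 4 (-0.097 to 0.51 with 1 left out). The cause was not tested. Depth limits Mag, Ncmap and Artn, which had 5 to 36 reads per library.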
